A study of Mus musculus with 4 samples.

Results

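The cytosolic ribosomal proteins were followed through an immunoprecipitation of CUGBP1 with the RNA bound to it. Probe sets were taken when the platform annotation paired them with exactly 1 gene and the symbol was that of a large subunit protein (Rpl, or Rplp for the stalk), a small subunit protein (Rps) or *Rpsa*, with pseudogene symbols (-ps) and the S6 kinase genes left out. This gave 61 genes of 19452 tested, with 212 probe sets out of 21044 that name 1 gene and 25175 in the deposited table. Whether a probe set lies at the gene itself or at a pseudogene copy annotated with its symbol was not examined. The large subunit had 129 probe sets of 38 genes and the small subunit 83 probe sets of 23 genes. Of all members, 8 probe sets of 7 genes belonged to paralogs that carry an l after the number (*Rpl10l*, *Rpl32l*, *Rpl39l*, *Rpl3l*, *Rpl7l1*, *Rps27l* and *Rps4l*), and 204 probe sets of 54 genes were canonical. Between them, 38 genes had more than 1 probe set, up to 13 for *Rps12* and *Rpl23a*, and 23 genes had 1.

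The CUGBP1 IP arrays held RNA recovered with the monoclonal antibody 3B1 against CUGBP1, and the control arrays held RNA recovered with normal IgG, with 2 arrays of each. Both came from the cytoplasm of C2C12 (LKO1) cells lysed while proliferating, a mouse myoblast line that stably carries an empty lentiviral vector and is kept in puromycin, so a single line stands for myoblasts. RNA was hybridized to Affymetrix Mouse Gene 1.0 ST arrays. No source used here describes the replicates as separate cultures, so p-values rest only on the spread between these arrays, which may be technical. In the limma fit with an intensity trend, that spread was taken from probe sets of like intensity. An SE or p-value given for a gene is thus not the replicate error of that gene itself.

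Each cytosolic ribosome joins a large subunit, which forms peptide bonds, to a small subunit, which reads the message. Messages for ribosomal proteins are abundant in growing cells, and most begin with a C followed by a run of pyrimidines, the 5′ terminal oligopyrimidine (TOP) tract, through which growth signals set their translation together. CUGBP1, encoded by *Celf1*, binds GU-rich elements, mostly in 3′UTRs, and promotes decay of the messages that carry them.

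The deposited values are linear intensities that the authors divided by the 5th percentile of the array, so a probe set with no transcript reads about 1. A value was counted as background at or below the 95th percentile of olfactory and vomeronasal receptor probe sets on the same array, which lay at 1.23 and 1.29 for CUGBP1 and at 1.09 and 1.16 on the IgG arrays. The median over all tested probe sets was 1.31 and 1.5 on the CUGBP1 IP arrays, against 1.08 and 1.22 on the IgG arrays. Of 10 myoblast markers, 10 and 10 were above background for CUGBP1 and 9 and 10 for IgG, with summed levels of 124 and 166 against 45.6 and 119. Markers of differentiated muscle were above background for 5 and 5 of 8 with CUGBP1 and 3 and 4 with IgG, blood markers for 0 and 1 of 4 against 0 and 0, and epithelial markers for 2 of 4 on every array. The part of these differences between arrays in the results below was not tested.

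The starts of these genes were read from a RefSeq promoter table of build GRCm38.p6, which held 49 of the 61 genes. A total of 2 motif searches were made, and both are given because the second was chosen after the result of the first was seen. In the first, a C followed by at least 4 pyrimidines and starting within 5 bases of the annotated start was found on the sense strand of 18 of 49 genes (36.7%), against 21.2% of all 27025 genes in the table. On the other strand it was found in 12.2% of the ribosomal protein genes and in 24.4% of all genes. In the second, CTTTC or CTTTT was looked for between 25 bases before and 50 bases after the start, on both strands (neighbouring matches can share a C). It was found on the sense strand of 27 of 49 genes (55.1%), against 18.5% of all genes, and on the other strand of 20.4% against 17.8%. By kind, the first search matched 2 of 6 paralogs and 16 of 43 canonical genes on the sense strand. The second matched 1 of 6 and 26 of 43 there, and 3 of 6 and 7 of 43 on the other strand. A match is a description of these letters and not a mapped TOP tract.

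The windows below show genes from both ends of the difference between the CUGBP1 IP and control IgG (*Rps12* low; *Rps10*, *Rpl22* and *Rpl37a* high), *Rps6* and *Rps15a*, whose groups were apart on some or all probe sets, and 3 paralogs. Each runs from 5 bases before the annotated start to 25 bases after, 5′ to 3′ on the sense strand, and capitals mark CTTTC or CTTTT with the pyrimidines that follow. Matches of the first search are not marked. *Rps15a* and *Rpl32l* carry no capitals but have such a match beginning at the annotated start. In order, they lie at chr10:23787185-23787214 (minus strand), chr4:86857343-86857372 (minus), chr17:27635220-27635249 (minus), chr7:118116123-118116152 (minus), chr4:152325721-152325750 (plus), chr1:72711255-72711284 (plus), chr10:20208434-20208463 (plus), chr12:66284377-66284406 (minus) and chr17:46782632-46782661 (minus).
Rps12: cggccaccgccggcCTTTTCCCCTgccgcc
Rps6: cgggcctCTTTTTCgtgacgcctcccaggc
Rps10: cgccccttcCTTTCCagcctccgcctcgga
Rps15a: gccatcttccctcgccggtgagtgagtgtt
Rpl22: gaaaagcaatagctggccgatcgttactta
Rpl37a: cggtctaaaaccgcgcatgcgcattgcgtc
Rpl32l: accagcttcttccttggtgctgcctacgag
Rpl10l: attttgcggctggcggtgggcacgcacggc
Rpl7l1: gcaagcgcagtagctgaagcaccggaaaga

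Ribosomal protein probe sets were above background on all 4 arrays for 206 of 212 and differed widely between the 2 control arrays. The median member read 33.7 and 67.5 in CUGBP1 IP 1 and 2, against 13.1 and 55.2 on the IgG arrays 1 and 2. Control IgG 2 therefore lay above CUGBP1 IP 1, and the groups overlapped. The median ratio of control IgG 2 to control IgG 1 was 3.67 over members, against 1.13 over all tested probe sets and 1.47 over other probe sets above background on all 4 arrays. The ratio of CUGBP1 IP 2 to CUGBP1 IP 1 was 1.92 over members, against 1.11 and 1.25 over the same sets.

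**Figure D1:**
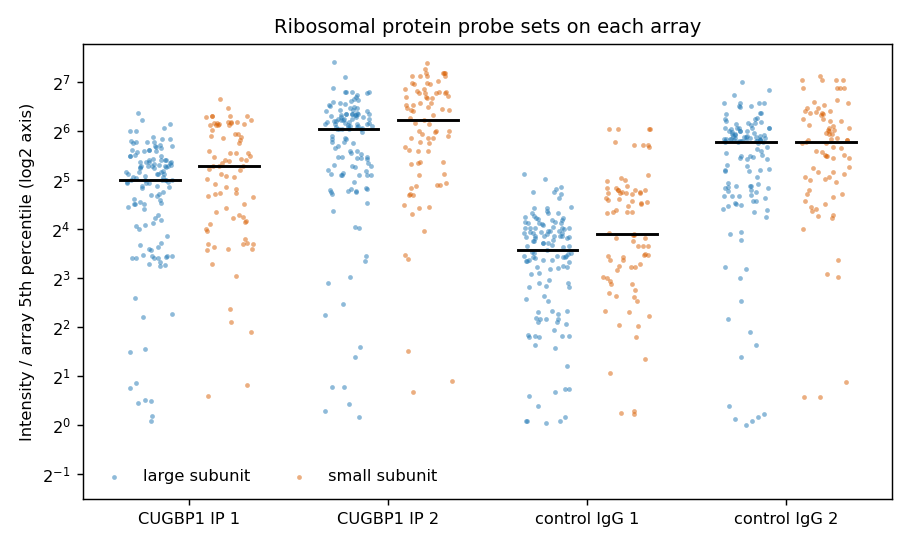
Scaled intensity (log2 axis; 1 is the 5th percentile of an array) of the 212 ribosomal protein probe sets on each array, 1 point per probe set, coloured by subunit, with black lines at the subunit medians. The points of control IgG 2 sit nearer to those of the CUGBP1 IP arrays than to those of control IgG 1, and the median over both subunits was 33.7 and 67.5 on the CUGBP1 IP arrays, against 13.1 and 55.2 on the IgG arrays.

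Fitted with limma over all 21044 probe sets, 0 of 212 members were called higher in the CUGBP1 IP at an adjusted p under 0.05, where 1.95% of all probe sets were, and 0 were called lower, where 0.138% were. At an unadjusted p under 0.05 there were 4 members (1.89%), against 29.1% of all probe sets, and a limma fit without the intensity trend called 0 of all 21044 probe sets, members included, with 6 members at an unadjusted p under 0.05. The lowest adjusted p among members was 0.0723, for *Rpl30*. In the fit with the trend, the median SE was 1.11 over members, against 0.18 over all probe sets. It was 0.39 over other probe sets above background on all 4 arrays. These counts of calls therefore do not compare members with other probe sets at like precision. The log2 difference, CUGBP1 IP minus control IgG, had a median of 0.83 over members and ranged between 0.08 and 1.44, against a median of 0.29 over all probe sets and 0.73 over other probe sets above background on all 4 arrays. It was above 0 for 212 of 212 members as deposited, for 201 with arrays divided by their medians, for 20 after quantile normalization and for 72 without control IgG 1, a setting in which the median over members was -0.16. In the same order, the shares of all probe sets above 0 were 94.0%, 51.7%, 45.9% and 86.4%.

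The mean CUGBP1 IP value divided by the mean control value, called the signal-to-negative ratio, was 1.49 at the median member and at most 2.36, for *Rpl22*. The top 5% of all probe sets began at 2.57 and held 0 members, where the background is 5%. Both CUGBP1 IP arrays lay above both control arrays for 17 of 212 members (8.02%), against 66.3% of all probe sets and 80.0% of other probe sets above background on all 4 arrays. Both lay below for 0 members, against 0.95% of all. Of the 61 genes, 9 had all their probe sets separated in this way, 4 had some and 48 had none.

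Set against each control array, the same members gave different answers. Against control IgG 1, the mean of the CUGBP1 IP arrays was higher for 211 of 212 members, with a median ratio of 3.60. It was higher for 94.6% of all probe sets and 100% of other probe sets above background, with medians of 1.31 and 2.09. Against control IgG 2 this mean was higher for 87 of 212 members (41.0%), with a median ratio of 0.954. There, 86.6% of all probe sets and 96.0% of other probe sets above background were higher, with medians of 1.13 and 1.34. Array by array, CUGBP1 IP 1 was above control IgG 1 for 210 members with a median ratio of 2.42, and CUGBP1 IP 2 was above it for 212 with a median ratio of 4.65. The shares were 92.2% and 93.1% over all probe sets, and 99.9% and 100% over other probe sets above background. CUGBP1 IP 1 was above control IgG 2 for 19 members with a median ratio of 0.645, and CUGBP1 IP 2 was above it for 208 with a median ratio of 1.28. Here the shares were 72.6% and 88.1% over all probe sets, and 80.2% and 98.95% over other probe sets above background. Both comparisons of arrays with the same replicate number thus ran upward for nearly every member, and likewise for nearly all other probe sets above background. Each ratio rests on 1 control array and has no test.

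**Figure D2:**
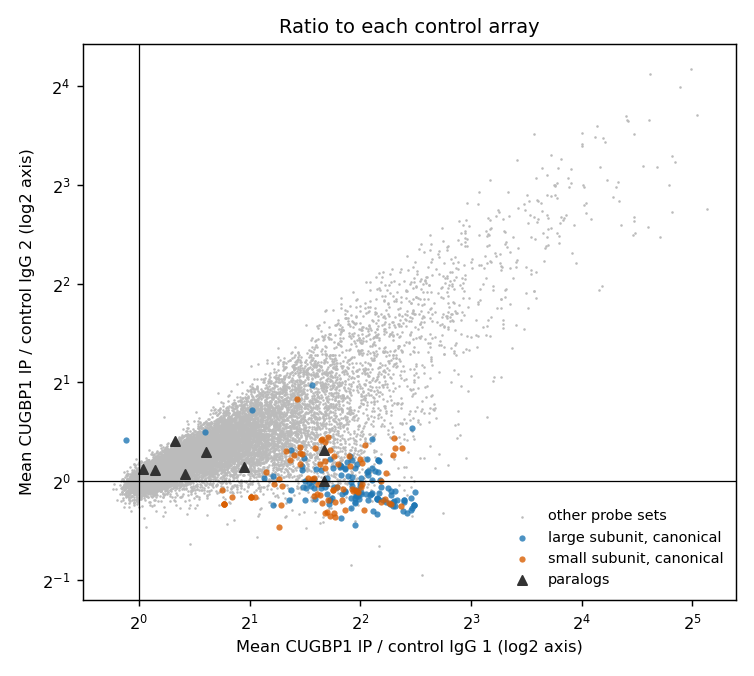
Mean of the CUGBP1 IP arrays over control IgG 1 (horizontal, log2 axis) and over control IgG 2 (vertical, log2 axis) for each probe set, with members coloured by subunit, paralogs as triangles and all other probe sets in grey; black lines mark a ratio of 1. Members spread along the horizontal axis around a median of 3.60 and lie on both sides of 1 on the vertical axis, around a median of 0.954.

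The difference between the subunits moved with the probe sets counted and with single arrays. The median log2 difference was 0.87 for large subunit and 0.74 for small subunit probe sets, a difference of 0.13. With 1 probe set per gene it was 0.76 and 0.73, a difference of 0.03, and with the 13 probe sets of *Rps12* left out of the small subunit the difference was 0.07. It was 0.05 after quantile normalization and ranged between 0.03 (without control IgG 1) and 0.27 (without control IgG 2) when 1 array was left out. Against control IgG 1 the median ratio was 3.87 for the large and 3.21 for the small subunit, and against control IgG 2 it was 0.952 and 0.967. Both CUGBP1 IP arrays lay above both control arrays for 8 of 129 large subunit (6.20%) and 9 of 83 small subunit probe sets (10.8%), against 66.3% of all probe sets. With 1 probe set per gene the order was reversed, at 7 of 38 (18.4%) and 2 of 23 (8.70%).

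Among large subunit genes, *Rpl37a* had the highest difference of all members. It read 19.5 and 35.3 on the CUGBP1 IP arrays, against 4.97 and 18.9 on the IgG arrays. On the log2 scale the difference was 1.44 ± 1.36 (SE from the intensity trend here and below, 2 arrays per group, limma adjusted p = 0.38). CUGBP1 IP 1 and control IgG 2 were nearly level, so the groups were barely apart. *Rpl22*, whose protein also binds small viral RNAs, read 9.97 and 7.49 on the CUGBP1 IP arrays, against 2.95 and 4.45 on the IgG arrays, or 1.25 ± 1.02 on the log2 scale (SE; limma adjusted p = 0.32). The groups did not overlap, and CUGBP1 IP 2 was the lower of its pair, whereas it was the higher one for 209 of 212 members. *Rpl27* (4 probe sets, 1.06 to 1.16), *Rpl10* (6, 1.01 to 1.15) and *Rpl7* (4, 0.94 to 1.02), all structural proteins of the large subunit, came next among the genes named by rule.

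Among members above background on all 4 arrays, the 8 lowest log2 differences were all of small subunit probe sets, while the 8 highest held both subunits. *Rps10*, a gene mutated in some inherited anaemias, had 3 probe sets with log2 differences of 1.09 to 1.33, and the highest read 39.1 and 63.7 on the CUGBP1 IP arrays, against 10.4 and 38.1 on the IgG arrays. *Rps14* had 2, at 1.15 and 1.29, and the higher read 78.5 and 125 on the CUGBP1 IP arrays, against 20.4 and 80.6 on the IgG arrays. For *Rps10* 1 of 3 probe sets had groups that did not overlap, and for *Rps14* control IgG 2 lay above CUGBP1 IP 1 on both. *Rps6*, the substrate of the S6 kinases, was separated on 4 of 8 probe sets, with differences of 0.86 to 1.04. *Rps4x* on 1 of 5 probe sets and, in the large subunit, *Rpl23* on 1 of 2 were also separated, and these and *Rps6* were named after their values were seen.

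At the low end, 4 probe sets of *Rps12* carried identical values, 79.4 and 145 on the CUGBP1 IP arrays, against 66.0 and 132 on the IgG arrays, or 0.20 ± 0.68 on the log2 scale (SE; limma adjusted p = 0.80). Its other probe sets reached 0.81. *Rps13* spanned 0.25 to 0.78 over 3 probe sets, and *Rps25*, which takes part in initiation at internal entry sites, spanned 0.26 to 0.65 over 6. In these genes the groups overlapped on every probe set. Over the 38 genes with several probe sets, the pooled SD within genes was 0.13 and the SD between gene medians 0.27 over all 61 genes. In all, 18 probe sets shared their 4 values with another member and held 7 distinct sets of values, such as the 3 of *Rpl41*, so probe sets of 1 gene are not independent measurements.

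**Figure D3:**
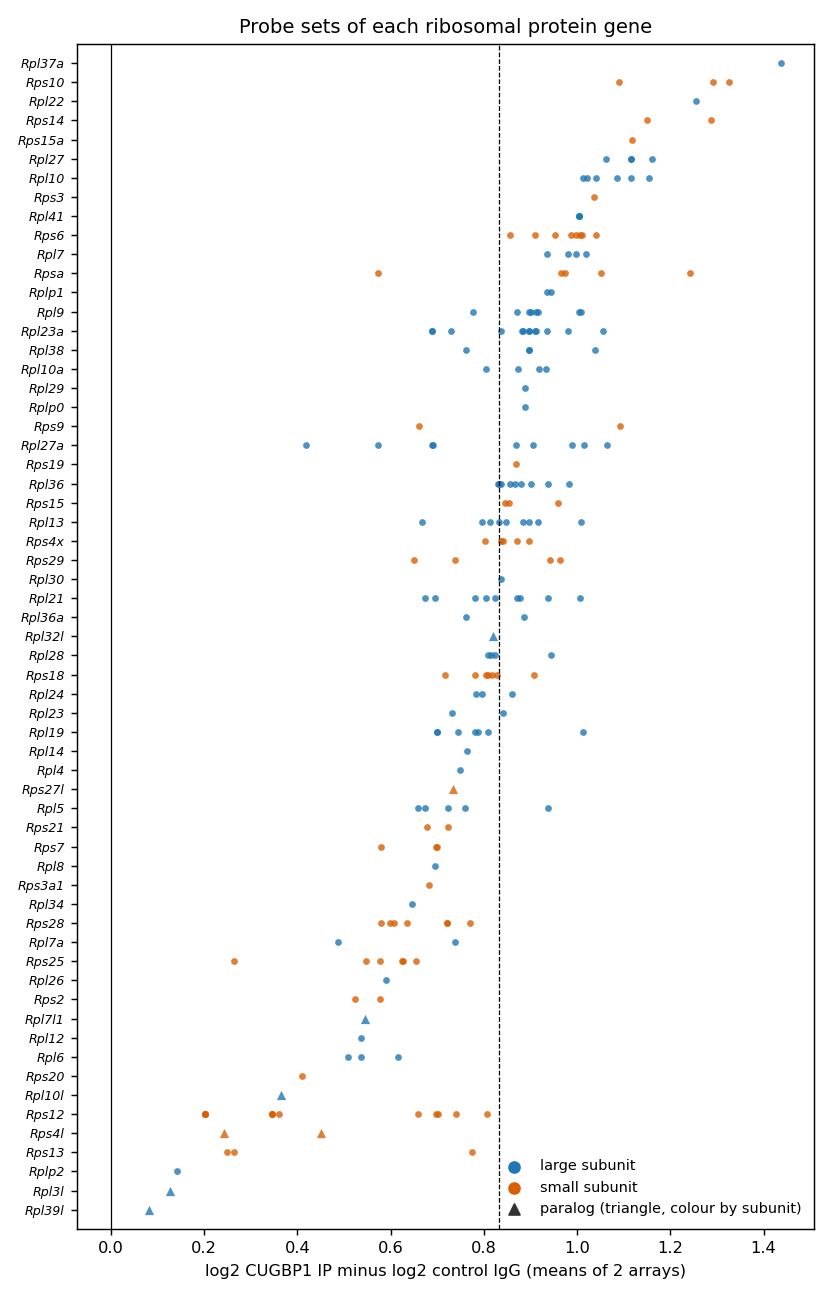
Log2 CUGBP1 IP minus log2 control IgG (means of 2 arrays each) for each probe set of the 61 genes, ordered by the gene's median, coloured by subunit, with paralogs as triangles; the solid line is 0 and the dashed line the median of 0.83. *Rpl37a* is at the top with 1.44, and *Rps12* spreads between 0.20 and 0.81.

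The stalk recruits elongation factors. *Rplp0* read 82.7 and 138 on the CUGBP1 IP arrays, against 29.1 and 115 on the IgG arrays (log2 difference 0.89 ± 0.79, SE; limma adjusted p = 0.36), and 2 probe sets of *Rplp1* had differences of 0.94 and 0.94. *Rplp2* read 1.37 and 1.72 on the CUGBP1 IP arrays, against 1.67 and 1.16 on the IgG arrays, and was the only member with a ratio to control IgG 1 below 1 (0.925). In all of them the groups overlapped. *Rpsa*, also known as a laminin receptor, had the widest spread within a gene, 0.57 to 1.24 over 5 probe sets, with overlapping groups on each.

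A few members kept their CUGBP1 IP arrays above both control arrays at low intensity. Over all probe sets, at any intensity, 66.3% did so. *Rps15a*, *Rpl30*, *Rpl12* and *Rpl10l* were the 4 members at an unadjusted p under 0.05 and, apart from *Rpl10l*, were named after their values were seen. *Rps15a* read 3.71 and 2.85 on the CUGBP1 IP arrays, against 1.22 and 1.84 on the IgG arrays, or 1.12 ± 0.45 on the log2 scale (SE; limma adjusted p = 0.11). *Rpl30*, at background on control IgG 1 alone, read 1.69 and 2.62 on the CUGBP1 IP arrays, against 1.06 and 1.31 on the IgG arrays, or 0.84 ± 0.28 on the log2 scale (SE; limma adjusted p = 0.0723). *Rpl12*, at the base of the stalk, reached 1.40 and 1.72 with the CUGBP1 antibody and was not above background on either control array (1.03 and 1.11). On the deposited scale this gives at least 1.38-fold (limma adjusted p = 0.084), uncorrected for the higher background of the CUGBP1 IP arrays. In each, the groups did not overlap, and none passed the adjusted threshold. *Rpl22*, *Rps15a* and *Rpl30* were the 3 genes with a ratio to control IgG 2 over 1.5.

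Paralogs had smaller differences than canonical probe sets as deposited. The median log2 difference was 0.41 over 8 paralog probe sets and 0.84 over 204 canonical ones, a difference of -0.43 that was -0.30 among members above background on all 4 arrays and -0.12 with the receptor median subtracted, and turned to 0.16 after quantile normalization and to 0.31 without control IgG 1. The median ratio to control IgG 1 was 1.43 for paralogs and 3.64 for canonical probe sets, and that to control IgG 2 was 1.10 and 0.948. Both CUGBP1 IP arrays lay above both control arrays for 5 of 8 paralog (62.5%) and 12 of 204 canonical probe sets (5.88%), where the share over all probe sets was 66.3%. Of the paralog probe sets, 3 of 8 were not above background on all 4 arrays, against 3 of 204 canonical ones, and a floor that is not subtracted draws the ratio of a dim probe set towards 1. The part of the floor in the difference between paralogs and canonical probe sets was not tested.

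By gene, *Rpl10l*, an autosomal copy of *Rpl10* known from testis, read 1.43 and 1.35 on the CUGBP1 IP arrays, against 1.11 and 1.05 on the IgG arrays (log2 difference 0.36 ± 0.16, SE; limma adjusted p = 0.14). *Rps4l* read 1.51 and 1.59 on the CUGBP1 IP arrays, against 1.16 and 1.48 on the IgG arrays, on 1 probe set and 1.76 and 1.87 against 1.19 and 1.48 on the other. *Rpl7l1* read 2.80 and 3.00 on the CUGBP1 IP arrays, against 1.5 and 2.63 on the IgG arrays. In these 3 genes the groups did not overlap. *Rps27l*, a target of p53, read 5.14 and 11 on the CUGBP1 IP arrays, against 2.53 and 8.09 on the IgG arrays, and *Rpl32l* read 6.06 and 16.5 against 3.53 and 9.09, with overlap in both. *Rpl39l* and *Rpl3l*, the form of *Rpl3* found in striated muscle, were not above background in either group, although the 4 values of *Rpl3l* did not overlap between groups (1.14 and 1.21 against 1.06 and 1.09).

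The change of a paralog was set against that of its canonical gene on the same arrays in 3 pairs. The difference between CUGBP1 IP and control IgG in the log2 ratio of paralog to canonical gene was -0.71 for *Rpl10l* and *Rpl10*, -0.44 for *Rpl7l1* and *Rpl7*, and -0.50 for *Rps4l* and *Rps4x*, a pair added after the values were seen. The exact two-sided permutation p was 0.667 for each, and 2 against 2 arrays cannot go below 0.333. *Rpl10l* was at background on control IgG 2, and the floor was not subtracted from these ratios, so they do not measure how far a paralog and its canonical gene differed. *Rpl3*, *Rpl32*, *Rpl39* and *Rps27* were among 17 ribosomal protein genes found only on probe sets that name several genes, so their paralogs were left without a pair.

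A list of other genes known for a TOP tract held elongation and initiation factors, but also *Vim* (vimentin), *Nap1l1* (a histone chaperone) and *Fau*, whose product includes a small subunit ribosomal protein. It had 24 probe sets of 18 genes and a median log2 difference of 0.97, with a median ratio of 3.37 to control IgG 1 and 1.18 to control IgG 2. Of these, 20 of 24 were above control IgG 2 and 10 had groups that did not overlap, and limma called 0. Mitochondrial ribosomal proteins, which build the separate ribosome of that organelle, had 84 probe sets with a median difference of 0.60 and median ratios of 2.00 and 1.17, with 71 above control IgG 2, 39 separated and 3 called higher. Proteasome subunits had 45 probe sets with a median of 0.76 and ratios of 2.41 and 1.28, with 45 above control IgG 2, 35 separated and 1 called higher. The separated shares of the lists were thus 41.7%, 46.4% and 77.8%. Over all probe sets, 86.6% were above control IgG 2, 66.3% were separated and 1.95% were called higher. Among probe sets above background on all 4 arrays other than members, the shares were 96.0%, 80.0% and 2.46%. Median SEs of the 3 comparison lists were 0.97, 0.44 and 0.50, so their calls were not made at like precision either. Counted by probe set, the cytosolic ribosomal proteins had the highest median ratio to control IgG 1 and the lowest to control IgG 2 of these 4 lists, as a description with no test. With 1 probe set per gene their median ratios were 3.19 and 1.01. The 3.19 lay below the 3.37 of the other TOP list, which was counted by probe set only.

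**Figure D4:**
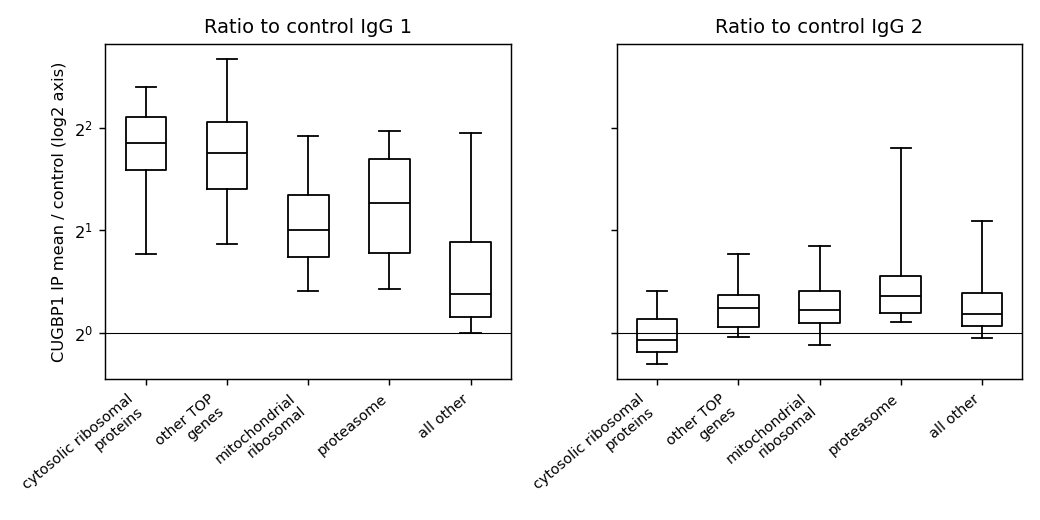
Mean of the CUGBP1 IP arrays over control IgG 1 (left) and over control IgG 2 (right), log2 axes, for the cytosolic ribosomal proteins, the 3 comparison lists and all other probe sets; boxes span the quartiles with a line at the median and whiskers reach the 5th and 95th percentiles. The cytosolic ribosomal proteins have a median of 3.60 on the left and 0.954 on the right.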

How the data were processed

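The authors deposited 1 intensity per probe set and array, on a linear scale, divided by that array's 5th percentile. The floor was not subtracted, and the summarisation program is not given in the sources used here. Values on 4 arrays were analysed, grouped and numbered by their titles. Symbols of 20959 probe sets were updated through gene identifiers in a RefSeq table (GRCm38.p6), used for names only. Log2 values of the 21044 probe sets naming 1 gene were fitted in R 4.3.3 with the lmFit and trended eBayes functions of limma 3.58.1. Two-sided p-values were adjusted by Benjamini-Hochberg at a threshold of 0.05. The step was tested on simulated data with noise independent between arrays, whereas same-numbered arrays here deviated together (r = 0.639). That test therefore does not show how often calls in these data are wrong. The number of arrays, 2 per group, limits the precision. Probe sets naming several genes were left out of the fit. Members and lists were chosen with earlier results of these data known. Genes were named by a rule: members called, the 8 highest and 8 lowest above background on all arrays, paralogs with their canonical genes, the stalk and *Rpsa*. Alternatives were 2 scalings, an offset, subtraction of the receptor median, a background filter, no trend, a replicate block, symbols as annotated, 1 probe set per gene and each array left out. Leaving out *Rps12* was added after the data were seen, and of 2 motif searches the second was chosen after the first was seen.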

Additional observations from a re-analysis of the deposited data

Results flagged for a closer look

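Outside the comparisons, 220 probe sets named several genes with a ribosomal protein among them. Their median log2 difference between CUGBP1 IP and control IgG was 0.8231, with median ratios of 3.67 to control IgG 1 and 0.955 to control IgG 2, and both CUGBP1 IP arrays lay above both control arrays for 10 of them (4.55%), against 66.3% of all probe sets tested. They were singled out because this signal lies in probe sets that no comparison above uses, and they received no test.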

How the results depend on the processing

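No member was called lower under any alternative, and members called higher were 0 under all but 2 of them, dividing arrays by their medians (1 member, with 1477 of all 21044 probe sets called higher) and the replicate block (5 members). Without the intensity trend, with the receptor median subtracted and with any 1 array left out, 0 of all probe sets were called, so a count of 0 members there says nothing about the members. Same-numbered arrays deviated together (r = 0.639 over all probe sets, 0.637 over members), but 2 pairs do not establish a pairing, and over all probe sets 11809 were called higher with the block, against 411 without it. Quantile normalization turned the median log2 difference to -0.343, the median ratio to control IgG 1 to 0.819 and paralog minus canonical to 0.159. Under it, 44 of 212 members had an unadjusted limma p under 0.05, against 4 as deposited. Their directions and the share over all probe sets were not counted. With 1 probe set per gene the median ratio to control IgG 2 was 1.01. The median over all tested probe sets was 0.29 as deposited, 0.015 with arrays divided by their medians and -0.013 after quantile normalization. The cause of these changes was not tested.

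With arrays divided by their medians, log2 differences turned to -0.0104 for *Rps25*, -0.192 for *Rpl39l*, -0.146 for *Rpl3l*, -0.0318 for *Rps4l*, -0.132 for *Rplp2*, -0.0237 and -0.00969 for *Rps13* and -0.0722 for the 4 identical probe sets of *Rps12*. After quantile normalization they turned to -0.337, -0.446, -0.502 and -0.302 for *Rpl7*, -0.779 for *Rpl32l*, -0.0811, -0.578, -0.377, -0.244 and -0.231 for *Rpsa*, -0.422 for *Rpl27*, -1.26 for *Rps25*, -0.0489 for *Rpl39l*, -0.0498 for *Rpl3l*, -0.476 for *Rpl7l1*, -0.0676 and -0.08 for *Rpl10*, -0.308 for *Rpl22*, -0.037 for *Rplp0*, -0.239 and -0.141 for *Rps4l*, -0.669 for *Rplp2*, -1.25 and -1.24 for *Rps13*, -0.129 for *Rplp1*, -0.771 for *Rps27l* and -0.559 for the same 4 of *Rps12*.

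Leaving out 1 array at a time, the median log2 difference ranged between -0.161 (without control IgG 1) and 1.77 (without control IgG 2). The median ratio to control IgG 2 ranged between 0.645 and 1.28, and paralog minus canonical between -1.28 and 0.313. Ranges that crossed 0 were -0.602 to 1.13 for *Rps25*, -0.103 to 1.88 for *Rplp0*, -0.122 to 0.404 for *Rplp2*, -0.252 to 0.753 and -0.164 to 0.692 for *Rps13*, -0.273 to 2.14 and -0.183 to 2.07 for *Rplp1*, -0.106 to 1.57 for *Rps27l* and -0.3 to 0.703 for *Rps12*. Other values of named probe sets kept their direction. *Rpl12*, *Rpl3l* and *Rpl39l* were at background on both control arrays. Input RNA was not analysed here, so binding and the amount of RNA carried into a precipitate cannot be told apart.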
